A study of Mus musculus with 17 samples.

Results

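The gut-homing receptors and mucosal integrins of CD4 T cells were followed here through 5 genes, the chemokine receptor gene Ccr9 and the integrin subunit genes Itga4, Itgb7, Itgae and Itgb1, of the 18194 genes that the array names. All probe sets (short sets of oligonucleotides that read 1 transcript) that the platform's gene table assigns to these genes alone were taken, 19 in number: 5 for Ccr9, 5 for Itga4, 1 for Itgb7, 2 for Itgae and 6 for Itgb1. Each gene was described by its brightest probe set, with probe sets of the cross-hybridizing kinds passed over where another existed, and the remaining probe sets are given separately. All 5 genes passed the filter on dim signals (2 or more arrays over the array median) in both experiments of the study. Ccr9 did so only through arrays with retinoic acid, the groups where it was high. Its tests and ranks below are therefore not independent of the filter.

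Transcript levels were measured on 17 Affymetrix arrays of mouse CD4 T cells in 8 groups. In the co-culture experiment (11 arrays, 6 groups), CD4+Foxp3- T cells from the spleens of C57BL/6-Foxp3/GFP reporter mice spent 5 days in culture with dendritic cells (DC), at 10 T cells per DC. Foxp3 is the transcription factor that defines regulatory T cells, and the reporter makes the cells that express it fluoresce. All co-cultures held anti-CD3 at 1 µg/ml, TGF-beta at 0.6 ng/ml and IL-2 at 5 ng/ml. The DC came from the spleen (Sp) or from the lamina propria of the gut (LP), or from the spleen with 100 nM retinoic acid added (SpRA). Retinoic acid (RA) is the active form of vitamin A. The cells were then sorted by GFP, which gave Sp Foxp3-, Sp Foxp3+, LP Foxp3-, LP Foxp3+ and SpRA Foxp3+ groups of 2 arrays each and an SpRA Foxp3- group of 1 array, whose spread is taken from the other groups. In the memory experiment (6 arrays, 2 groups), CD44hiCD62L-CD25-CD4+ cells of C57BL/6 spleen and lymph nodes were cultured for 48 hours, 2 for each naive CD4 T cell of another congenic type, on beads coated with anti-CD3 and anti-CD28. IL-2 at 20 U/ml and TGF-beta at 10 ng/ml were present in both groups, and RA at 100 nM was added in MemoryRA and left out in Memory. The memory cells were sorted again by the congenic marker before RNA was taken (3 arrays in each group). The only Foxp3 probe set of the array did not separate the sort labels and cannot check them. It lay near background on all 11 co-culture arrays, although it read 7.08 to 9.14 on the 6 memory arrays. Its co-culture levels were 3.88 to 4.44 on arrays labelled Foxp3- and 4.09 to 4.53 on those labelled Foxp3+. Il2ra, which encodes the IL-2 receptor alpha chain (CD25) of regulatory and activated T cells, ran with the labels, at 10.68 to 12.06 on arrays labelled Foxp3+ and 9.07 to 10.64 on those labelled Foxp3- (1.58 over the mean of the 3 cultures, limma adjusted p = 0.00721 paired, and 1.53 with adjusted p = 0.0682 unpaired). Foxp3+ and Foxp3- therefore stand for labels throughout. Each array held cells pooled from 3 male mice of 6 to 10 weeks. Nothing in the labels beyond the array numbers says that the arrays of a group were separate cultures, so the p-values measure the spread between these arrays.

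T cells reach the gut wall through a small set of surface receptors. CCR9, the product of Ccr9, is the receptor for CCL25, a chemokine made by the epithelium of the small intestine. Integrins are pairs of an alpha and a beta chain, and the members form 3 of these pairs. Alpha 4 (Itga4) with beta 7 (Itgb7) binds MAdCAM-1 on vessels of the gut, alpha 4 with beta 1 (Itgb1) binds VCAM-1 and fibronectin, and alpha E (Itgae, CD103) with beta 7 binds E-cadherin on epithelial cells. RA made by gut DC is known to induce CCR9 and alpha 4 beta 7 on T cells, and TGF-beta is known to induce alpha E.

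In the mouse assembly GRCm38.p6, the genes lie at chr9:123767211-123783457 (Ccr9), chr2:79255426-79333114 (Itga4), chr15:102215994-102233405 (Itgb7), chr11:73090505-73147449 (Itgae) and chr8:128685654-128733579 (Itgb1). The 250 bases before the annotated start of 3 of them (RefSeq, GRCm38.p6) are printed because RA acts through nuclear receptors that bind DNA and because Ccr9 and Itga4 moved with RA below whereas Itgb1 did not pass a test. The table's entry for Itgb7 lies inside the span of the gene, so it is not printed. The windows are chr9:123766961-123767210 on the plus strand for Ccr9, chr2:79255176-79255425 on the plus strand for Itga4 and chr8:128685404-128685653 on the plus strand for Itgb1. Capitals mark matches, on either strand, to 4 hexamers of the kind that retinoic acid receptors bind (AGGTCA, or GGGTCA, or GGTTCA, or AGTTCA) or to CAGAC, the core letters of a Smad site, Smads being the transcription factors of TGF-beta signalling.
Ccr9: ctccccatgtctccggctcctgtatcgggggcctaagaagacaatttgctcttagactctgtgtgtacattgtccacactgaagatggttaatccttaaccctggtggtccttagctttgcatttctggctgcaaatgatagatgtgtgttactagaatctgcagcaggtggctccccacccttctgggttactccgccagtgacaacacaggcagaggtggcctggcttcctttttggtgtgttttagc
Itga4: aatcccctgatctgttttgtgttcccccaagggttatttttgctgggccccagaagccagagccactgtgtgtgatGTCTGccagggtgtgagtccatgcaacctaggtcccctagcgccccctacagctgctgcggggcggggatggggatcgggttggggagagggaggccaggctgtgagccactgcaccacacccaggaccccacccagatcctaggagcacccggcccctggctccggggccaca
Itgb1: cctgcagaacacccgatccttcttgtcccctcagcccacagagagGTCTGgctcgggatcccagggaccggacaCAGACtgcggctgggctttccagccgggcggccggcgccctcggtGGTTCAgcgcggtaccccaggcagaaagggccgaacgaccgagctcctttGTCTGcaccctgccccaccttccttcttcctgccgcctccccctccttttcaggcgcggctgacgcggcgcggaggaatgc
The Ccr9 window held no match to any of the motifs. That of Itga4 held CAGAC at position -174 from the start site, and no hexamer. The Itgb1 window held GGTTCA at -131 and CAGAC at -205, -176 and -81. None of these windows held a full direct repeat of AGGTCA with 5 bases between the copies, which stood in 3 of 32851 such windows (0.00913%). Any of the 4 hexamers stood in 38.6% of the 32851 windows (AGGTCA in 14.0%, GGGTCA in 11.6%, GGTTCA in 8.85% and AGTTCA in 11.8%) and CAGAC in 42.2%, so these letters are common in windows of this length. A match is a description of letters, not a site in use, and sites farther from the start were not looked at.

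Values are log2 of the authors' robust multi-array average (RMA) intensities, called log2 levels here, and differences are log2 differences, on which 1 unit is a doubling. Array medians lay between 5.88 and 5.98. Levels of different probe sets or genes are not comparable with each other, so each gene is compared only with itself. Since these are bulk samples, fewer cells carrying a transcript and less of it per cell cannot be told apart.

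**Figure D1:**
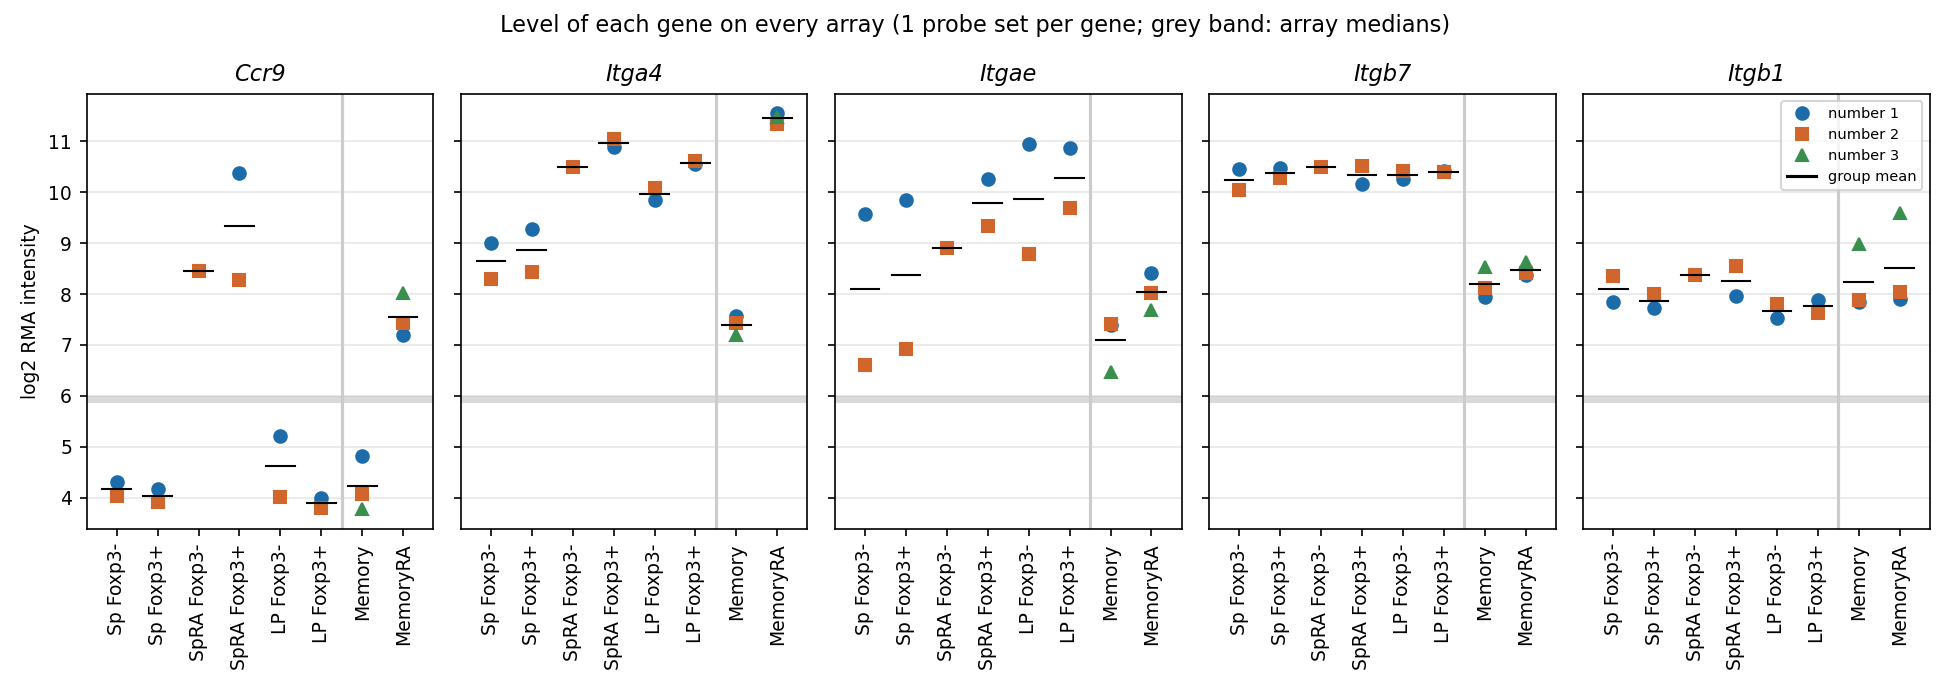
Log2 RMA intensity (vertical axis) of each gene on its used probe set, 1 panel per gene, in the 6 co-culture and 2 memory groups (horizontal axis), with 1 point per array shaped by array number, a bar at the group mean and a grey band at the array medians. All arrays with RA lie at 7.20 or above for Ccr9 and all others at 5.21 or below, while Itgb7 is level within each experiment.

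Ccr9 was high in the 3 groups cultured with RA and below the array median on every array of the other 5. Its log2 levels were 10.39 and 8.27 in SpRA cells labelled Foxp3+, 8.46 in the SpRA Foxp3- array and 7.20, 7.43 and 8.03 in MemoryRA cells. Without RA they were 5.21 and 4.02 in LP cells labelled Foxp3-, 4.82, 4.07 and 3.78 in Memory cells, 4.31 and 4.03 in Sp cells labelled Foxp3-, 4.16 and 3.91 in Sp cells labelled Foxp3+ and 3.99 and 3.79 in LP cells labelled Foxp3+. The lowest array with RA (7.20) stood above the highest without it (5.21). In this order each group without RA overlapped its neighbours. SpRA Foxp3+ overlapped the SpRA Foxp3- array, and all MemoryRA arrays lay below that array. In Memory, Sp Foxp3-, Sp Foxp3+ and LP Foxp3+ every array lay more than 1 log2 unit below its array median, so that differences from them are read as lower bounds. On a brighter, cross-hybridizing probe set of Ccr9 1 array without RA, of the LP Foxp3- group, lay above its array median, at 6.53.

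Itga4 was well above the array median on all 17 arrays and spanned the range from 7.19 to 11.55. MemoryRA cells were highest at 11.55, 11.34 and 11.47 (mean 11.46 ± 0.11 SD, n = 3), followed by SpRA Foxp3+ at 10.90 and 11.06, LP Foxp3+ at 10.55 and 10.62 and the SpRA Foxp3- array at 10.50. LP cells labelled Foxp3- lay at 9.85 and 10.08, Sp cells labelled Foxp3+ at 9.29 and 8.44 and Sp cells labelled Foxp3- at 9.01 and 8.29. Memory cells were lowest at 7.56, 7.43 and 7.19 (mean 7.40 ± 0.19 SD, n = 3). In this order the only neighbours that overlapped were Sp Foxp3+ and Sp Foxp3-, and the SpRA Foxp3- array lay just below both LP Foxp3+ arrays.

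Itgb7, the beta chain shared by both mucosal integrins, split by experiment and little by condition. Its levels were 10.04 to 10.51 on the 11 co-culture arrays and 7.94 to 8.63 on the 6 memory arrays. Within the co-culture the group means ran only from 10.25 (Sp Foxp3-) to 10.51 (the SpRA Foxp3- array), and all 5 groups with a pair of arrays overlapped one another. MemoryRA arrays (8.38, 8.41 and 8.63) and Memory arrays (7.94, 8.11 and 8.52) overlapped. The experiments differ in cell type, stimulus, time and TGF-beta dose at once, so no cause of that step can be told apart.

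Itgae ranged from 6.47 to 10.94 and spread widely within the co-culture groups. LP Foxp3+ arrays gave 10.88 and 9.69, LP Foxp3- arrays 10.94 and 8.79, SpRA Foxp3+ arrays 10.26 and 9.34, the SpRA Foxp3- array 8.90, Sp Foxp3+ arrays 9.84 and 6.91 and Sp Foxp3- arrays 9.58 and 6.61. MemoryRA arrays gave 8.42, 8.02 and 7.69 and Memory arrays 7.40, 7.41 and 6.47. The lowest MemoryRA array stood above the highest Memory array, while neighbouring co-culture groups overlapped, except that the SpRA Foxp3- array lay below both SpRA Foxp3+ arrays.

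Itgb1, the partner of alpha 4 in the VCAM-1 receptor, stayed between 7.54 and 8.55 on the co-culture arrays. In the memory experiment it was 7.91, 8.04 and 9.60 with RA and 7.85, 7.88 and 8.98 without. Both arrays numbered 3 were the high ones, and the groups overlapped.

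RA in memory cells. In the paired fit RA raised both alpha chains and the chemokine receptor, while neither beta chain passed a test. Tests are limma fits over all 11921 genes with Benjamini-Hochberg adjusted p and a threshold of 0.05, once without the array number (unpaired) and once with the number as a block (paired), since same-numbered arrays deviated together. A standard error given after ± is that of the unpaired fit unless it stands with the paired fit alone. Of the 5 genes, 1 passed in the unpaired fit, where 0.0419% of all genes were called, and 3 in the paired fit, where 4.61% were called, all of them higher with RA. Itga4 rose 16.7-fold (4.06 ± 0.19 standard error, limma adjusted p = 0.0026 unpaired and 2.23e-06 paired) and had the largest measured difference of the 11921 genes, although Ccr9 exceeds it at 5.24 where its cross-hybridizing probe set is used. Its 3 same-numbered differences were alike at 3.99, 3.91 and 4.29. The unpaired call was lost without Memory 2 (adjusted p = 0.0681) or MemoryRA 1 (adjusted p = 0.0601). It was lost too with the mean of all probe sets (2.68, limma adjusted p = 0.0885). The paired call held with each of the 6 arrays left out. In the paired fit an array left out takes its same-numbered partner out of the difference too. Those fits therefore rest on fewer pairs and are not 6 separate checks.

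Ccr9, too, moved far in the same comparison. Its same-numbered differences were 2.38, 3.36 and 4.25, with a mean of 3.33 ± 0.35, a fold of at least 10.1 given the near-background level of Memory cells. It rose in the paired fit (limma adjusted p = 0.00025), and it did not pass in the unpaired fit (adjusted p = 0.0611). The unpaired call was made in several alternatives, among them quantile normalization (adjusted p = 0.0184) and all 17 arrays in 1 fit (adjusted p = 0.00552). Itgae differed by 1.02, 0.61 and 1.22 in the 3 numbers (mean 0.95, 1.93-fold) and rose in the paired fit (limma adjusted p = 0.00669), not in the unpaired fit (adjusted p = 0.962). The paired call was lost without Memory 3 (adjusted p = 0.0907) or MemoryRA 3 (adjusted p = 0.0920).

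For the beta chains the 3 same-numbered differences were all above 0 and small. Itgb7 differed by 0.44, 0.30 and 0.11 (mean 0.28, limma adjusted p = 0.370 paired and 1.00 unpaired), with a 95% interval from -0.02 to 0.59 in the paired fit. Itgb1 differed by 0.06, 0.16 and 0.62 (mean 0.28, adjusted p = 0.442 paired and 1.00 unpaired), with an interval from -0.06 to 0.62. In the same fit the interval for Itga4 starts at 3.75. In the unpaired fit the upper bounds are 0.80 for Itgb7 and 1.57 for Itgb1, and the interval for Itga4 starts at 3.61.

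RA in cells labelled Foxp3+ cultured with spleen DC. Ccr9 and Itga4 were higher with RA here too. Of 11695 genes tested, 0.103% were called unpaired and 1.13% paired. Of the 5 members, Ccr9 passed in both fits and Itga4 in the paired fit, both higher. Ccr9 differed by 6.22 in number 1 and 4.36 in number 2 (mean 5.29 ± 0.62, at least 39.2-fold, limma adjusted p = 0.0233 unpaired and 0.000194 paired), the largest measured difference of the 11695 genes. The unpaired call held in 4 of the 11 fits with 1 array left out (adjusted p up to 0.194) and the paired call in all 11. Only the SpRA Foxp3+ and Sp Foxp3+ arrays enter this difference. Leaving out another array changes the estimate of the spread alone, so these are not 11 separate checks. Itga4 differed by 1.61 and 2.62 (mean 2.11 ± 0.31, 4.33-fold, limma adjusted p = 0.0808 unpaired and 0.0048 paired), and its paired call was lost without SpRA Foxp3+ 2 (adjusted p = 0.0826).

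Itgae differed by 0.42 in number 1 and by 2.42 in number 2, a mean of 1.42 that did not pass (limma adjusted p = 0.223 paired and 1.00 unpaired). Its 95% interval in the paired fit, 0.41 to 2.43, is unadjusted and wide. Itgb1 gave 0.22 and 0.55 (adjusted p = 0.468 paired). Itgb7 gave -0.32 and 0.24, opposite in sign in the 2 numbers, with a mean of -0.04 and an interval from -0.44 to 0.36 (adjusted p = 0.964 paired).

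RA in cells labelled Foxp3- cultured with spleen DC rests on 1 array with RA. Within number 2 the differences were 4.43 for Ccr9, 2.21 for Itga4, 2.29 for Itgae, 0.46 for Itgb7 and 0.02 for Itgb1. Of all genes 0.00855% were called unpaired and 0.274% paired, and Ccr9 was the only member to pass, in the paired fit (4.69 ± 0.50, limma adjusted p = 0.00528, against 4.29 ± 0.76 and adjusted p = 0.350 unpaired). That call was lost without Sp Foxp3- 1 (adjusted p = 0.0517) or Sp Foxp3- 2 (adjusted p = 0.0608). Itga4 missed the threshold (1.96 ± 0.33, adjusted p = 0.0606 paired), and passed in the paired fit when LP Foxp3- 1, LP Foxp3- 2, Sp Foxp3+ 1 or Sp Foxp3+ 2 was left out (adjusted p = 0.0275 to 0.0311).

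**Figure D2:**
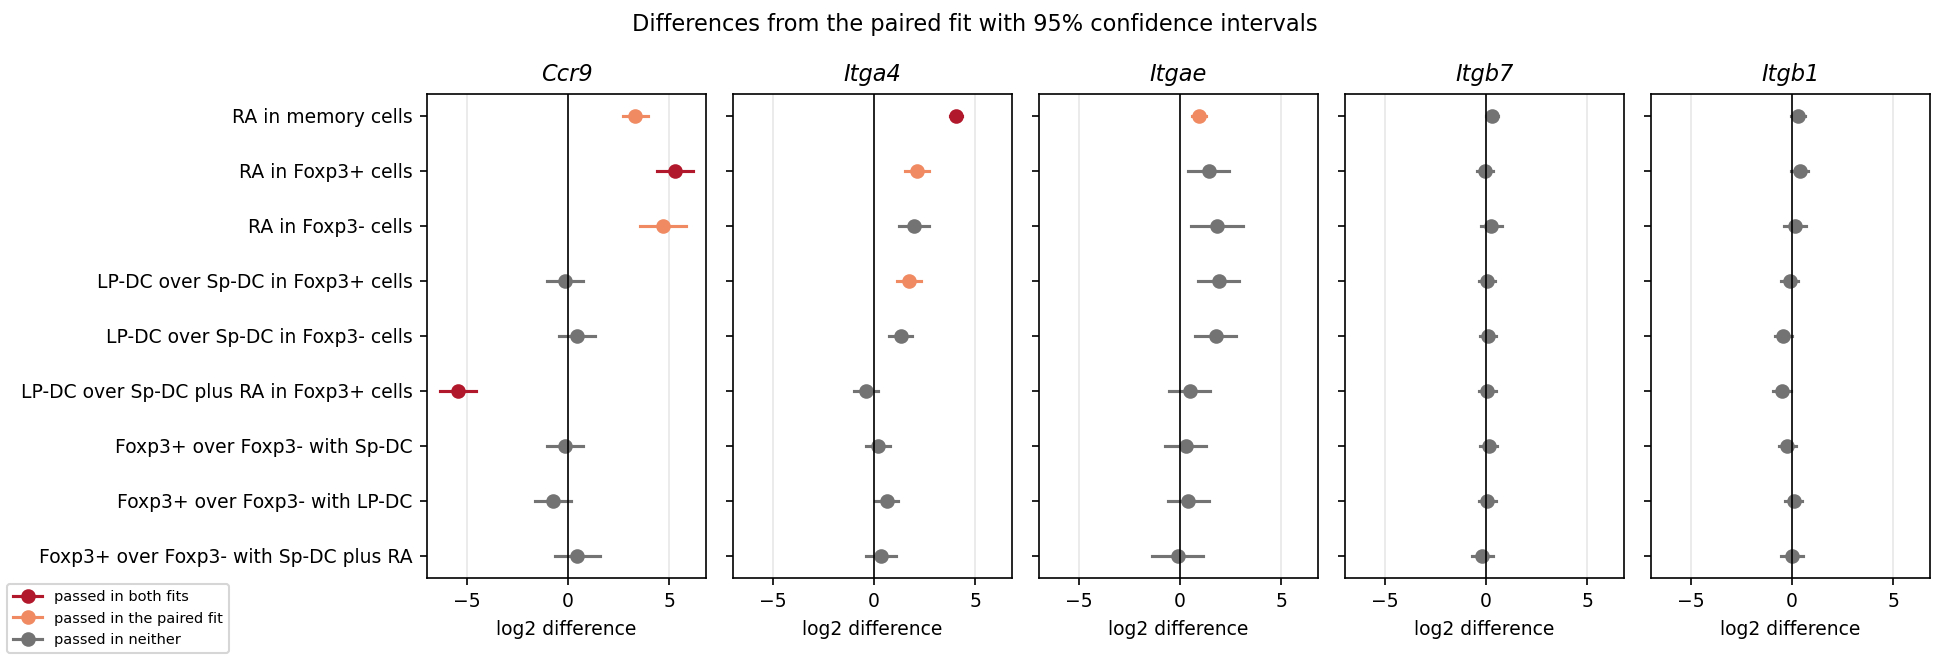
Log2 difference (horizontal axis) of the 5 genes in 9 comparisons (vertical axis) from the paired fit, with 95% confidence intervals, coloured by whether the gene passed in both fits, in the paired fit or in neither. Ccr9 passed in the 3 RA comparisons and, in the other direction, with LP DC against Sp DC plus RA, and Itga4 passed in 2 of the RA comparisons and with LP DC over Sp DC in cells labelled Foxp3+.

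Lamina propria DC against spleen DC, cells labelled Foxp3+. With gut DC in place of spleen DC, and no RA added, Itga4 was higher in the paired fit while Ccr9 did not pass a test. Itga4 differed by 1.26 and 2.18 (mean 1.72, ± 0.31 unpaired and ± 0.26 paired, 3.29-fold) and rose in the paired fit (limma adjusted p = 0.0269, against 0.359 unpaired). Of all genes 1.52% were called in the paired fit and 0% unpaired (limma, 904 genes with an unadjusted p under 0.05), and Itga4 was the 1 member called. Its call held in 7 of the 11 paired fits with 1 array left out and was lost without LP Foxp3+ 2 (adjusted p = 0.338), Sp Foxp3+ 2 (adjusted p = 0.303), Sp Foxp3- 1 (adjusted p = 0.0586) or Sp Foxp3- 2 (adjusted p = 0.0581). Only the LP Foxp3+ and Sp Foxp3+ arrays enter the difference, which stayed at 1.72 without either Sp Foxp3- array. Itgae differed by 1.04 and 2.77 (mean 1.91) and missed the threshold (adjusted p = 0.0634 paired and 0.825 unpaired), passing in the paired fit without Sp Foxp3+ 1 (adjusted p = 0.032). Ccr9 gave -0.17 and -0.12, with both groups near background on its used probe set (95% interval from -1.04 to 0.74, adjusted p = 0.902 paired), and the mean turns to 0.35 with the cross-hybridizing probe set. Itgb7 (-0.06 and 0.13) and Itgb1 (0.15 and -0.37) had opposite signs in the 2 numbers and did not pass (adjusted p = 0.955 and 0.838 paired).

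Cells labelled Foxp3- gave like values for the same change of DC, and no member passed. The numbers 1 and 2 differed by 0.83 and 1.79 for Itga4 (mean 1.31 ± 0.31, limma adjusted p = 0.0556 paired and 0.470 unpaired) and by 1.36 and 2.18 for Itgae (mean 1.77, adjusted p = 0.0879 paired). Itga4 passed in the paired fit when LP Foxp3+ 1, LP Foxp3+ 2, Sp Foxp3+ 1 or Sp Foxp3+ 2 was left out (adjusted p = 0.0361 to 0.0417). Ccr9 gave 0.90 and -0.01 (adjusted p = 0.645 paired), the first value resting on the LP Foxp3- array at 5.21. Itgb7 gave -0.20 and 0.37, and Itgb1 gave -0.30 and -0.55 (adjusted p = 0.872 and 0.301 paired). In this comparison 0.624% of genes were called paired and 0% unpaired (limma, 765 genes with an unadjusted p under 0.05).

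Some markers of DC and of cytotoxic cells were lower with LP DC than with Sp DC. Over 12 measured DC marker genes the summed intensity was 702 to 775 on the 4 LP arrays and 785 to 902 on the 4 Sp arrays. The defining DC marker Itgax lay at 5.24 to 5.69 on LP arrays and 5.48 to 5.58 on Sp arrays, below the array median on all of them, Itgam was near background in all 8 groups, and the MHC class II gene H2-Ab1 fell in both sorts (-1.13 and -1.23, paired fit). The 7 measured markers of CD8 T and NK cells summed to 2246 to 2454 in LP cells labelled Foxp3+ against 4727 to 5818 in Sp cells labelled Foxp3+, and to 5479 to 7093 against 8136 to 8138 in the Foxp3- sorts. Both marker sums were lower with LP DC in each sort, but single markers differed. Cd74 was higher with LP DC in cells labelled Foxp3+ (6.68 to 6.78 against 6.04 to 6.42). So was H2-Aa there (6.34 to 6.40 against 6.23 to 6.31). In cells labelled Foxp3-, Gzma (9.72 to 10.42 against 9.69 to 10.47) and Klrd1 (11.42 to 11.44 against 11.07 to 11.53) overlapped. Cd8a overlapped too (5.53 to 7.01 against 5.66 to 5.96), while Nkg7 was lower with LP DC (10.45 to 11.28 against 11.48 to 12.13). The part of these cells in the values of Itga4 and Itgae was not tested.

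Lamina propria DC against spleen DC plus RA, cells labelled Foxp3+. The clearest difference between gut DC and added RA was Ccr9. It was 6.40 lower in number 1 and 4.49 lower in number 2 with LP DC than with Sp DC plus RA, a mean of -5.44 ± 0.62, and fell in both fits (limma adjusted p = 0.0228 unpaired and 0.000215 paired), the largest difference of the 11695 genes. Of all genes 0.0941% were called unpaired and 1.91% paired, and Ccr9 was the 1 member called in each. The unpaired call held in 5 of 11 fits with 1 array left out (adjusted p up to 0.322) and the paired call in 11 of 11. Here too only the arrays of the groups compared enter the difference. Itga4 was 0.35 and 0.44 lower with LP DC, which did not pass (paired fit, -0.39 ± 0.26, adjusted p = 0.579, 95% interval from -0.99 to 0.20), an interval that spans both no difference and one of nearly 1 log2 unit. Itgae gave 0.62 and 0.35, Itgb7 0.26 and -0.11, and Itgb1 -0.07 and -0.92 (adjusted p = 0.725, 0.917 and 0.286 paired). This comparison shares the SpRA Foxp3+ arrays with RA in cells labelled Foxp3+. It shares the LP Foxp3+ arrays with LP DC against Sp DC in cells labelled Foxp3+. Those other comparisons share the Sp Foxp3+ arrays, so the 3 sets of values are not independent.

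Cells labelled Foxp3+ against cells labelled Foxp3-. On its used probe set, none of the 5 genes passed a test between the sorts, while a second probe set of Itga4, given with the other probe sets, passed in the paired fit. The cells labelled Foxp3+ differed from cells labelled Foxp3- in Itga4 by 0.62 ± 0.31 with LP DC, 0.21 with Sp DC and 0.47 with Sp DC plus RA, and by 0.43 ± 0.19 over the mean of the 3 cultures (limma adjusted p = 0.656 unpaired and 0.298 paired). For the mean of the 3 cultures, Itgae differed by 0.53, Itgb1 by -0.09 and Itgb7 by 0.01 in the unpaired fit, and by 0.19, -0.05 and 0.00 in the paired fit. Ccr9 gave 0.00 and -0.13, a mean over cultures near background and above it. Of all genes, 0.821% were called unpaired and 4.62% paired for that mean, 0.197% and 3.53% with LP DC, 0% and 0.556% with Sp DC, and 0% and 0.0257% with Sp DC plus RA, and 0 of the 5 members were called in any (limma). In the comparisons in which 0% were called, 410 genes had an unadjusted p under 0.05 with Sp DC and 194 with Sp DC plus RA, unpaired. These directions rest on sort labels that the Foxp3 probe set does not separate and cannot check.

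Whether a change differed between sorts or experiments was tested as an interaction. The RA difference was larger in cells labelled Foxp3+ than in those labelled Foxp3- by 0.26 for Itga4, and the LP DC difference by 0.41 for Itga4 and 0.13 for Itgae. None of the 5 passed in either fit, nor did any other gene (0% called unpaired and paired in both interactions by limma, with 51 and 224 genes at an unadjusted p under 0.05 for RA and 102 and 423 for LP DC). Between experiments the RA difference in memory cells exceeded that in cells labelled Foxp3+ by 1.95 for Itga4 (± 0.37 unpaired with adjusted p = 0.131, ± 0.32 paired with adjusted p = 0.00882). Of 12422 genes 0.0564% were called unpaired and 1.32% paired in this contrast, and Itga4 was the 1 member called. Its call held in 16 of the 17 paired fits with 1 array left out, all but that without SpRA Foxp3+ 1 (adjusted p = 0.0739). Arrays of the other co-culture groups do not enter this difference, so these are not 17 separate checks. For Ccr9 both RA differences are lower bounds, so neither the size nor the direction of their difference is read. Itgae (-0.47), Itgb7 (0.32) and Itgb1 (-0.10) did not pass (adjusted p = 0.803, 0.645 and 0.920 paired).

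The step of Itgae between the array numbers was as large as its differences between cultures. Number 2 lay below number 1 by 2.97 in Sp cells labelled Foxp3-, 2.93 in Sp cells labelled Foxp3+, 2.16 in LP cells labelled Foxp3-, 1.19 in LP cells labelled Foxp3+ and 0.92 in SpRA cells labelled Foxp3+. All 5 steps run the same way, and they are largest in the cultures with spleen DC and no RA. The labels do not say what the numbers stand for.

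**Figure D3:**
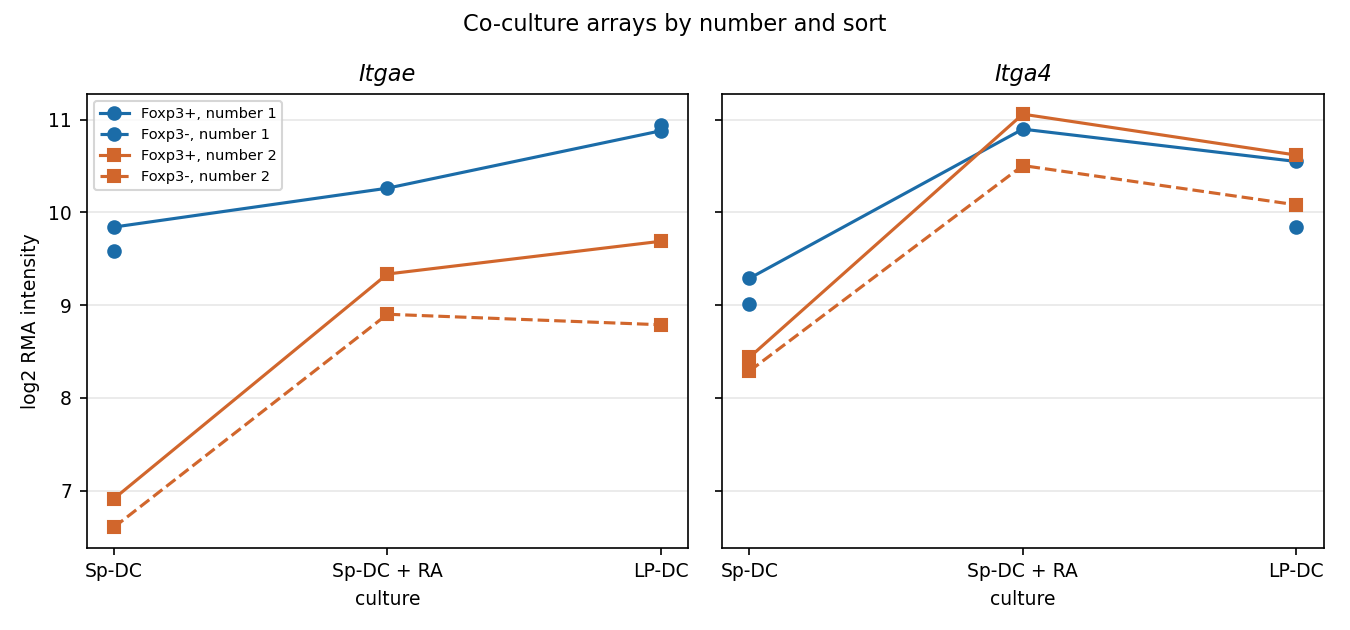
Log2 RMA intensity (vertical axis) of Itgae and Itga4 on the 11 co-culture arrays by culture (horizontal axis), with arrays of 1 number and sort joined and no line across the culture that has no such array. For Itgae number 1 lies above number 2 in all 5 groups with both numbers, by 0.92 to 2.97.

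Other probe sets of Ccr9 and Itga4 also rose with RA. A cross-hybridizing probe set of Ccr9 went from 4.55 to 4.66 in Memory cells to 9.59, 9.90 and 10.03 with RA (5.24, limma adjusted p = 0.00169 over all probe sets, unpaired), and by 5.71 in cells labelled Foxp3+ (adjusted p = 0.0133). Another Ccr9 probe set rose in the paired fit by 1.41 in memory cells and 2.12 in cells labelled Foxp3+, and the other 2 were below the array median on all 17 arrays. Of the 5 probe sets of Itga4, 4 rose with RA in memory cells in the paired fit, by 4.06, 3.29, 3.04 and 2.26. The second-brightest of them rose also in cells labelled Foxp3+ (1.51, adjusted p = 0.00614 unpaired), in cells labelled Foxp3- with RA (1.08, adjusted p = 0.0284 paired), and with LP DC in those labelled Foxp3+ (1.17, adjusted p = 0.0175 paired) and Foxp3- (0.79, adjusted p = 0.0349 paired). It was the one probe set of the members to separate the sorts, with 0.55 under LP DC (adjusted p = 0.0407 paired) and 0.44 over the mean of the 3 cultures (adjusted p = 0.00988 paired). Both Itgae probe sets rose with RA in memory cells (0.95 and 0.97, paired). None of the 6 Itgb1 probe sets and not the 1 of Itgb7 passed in any comparison, and 4 of those of Itgb1 lay below the array median on all 17 arrays.

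**Figure D4:**
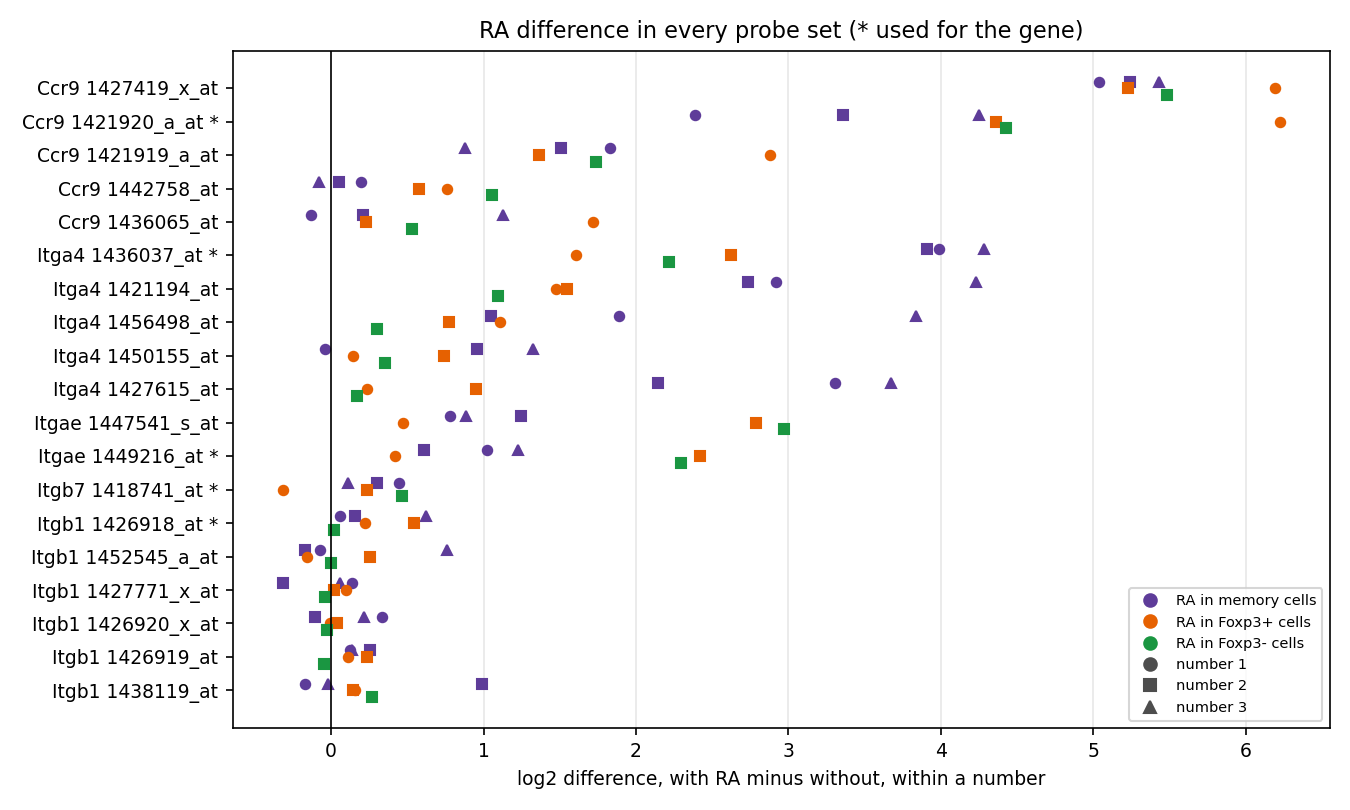
Log2 difference with RA minus without, within an array number (horizontal axis), for each of the 19 probe sets (vertical axis), in memory cells and cells labelled Foxp3+ or Foxp3- by colour and array number by shape, with the used probe set of each gene starred. The used Itga4 probe set lies between 3.91 and 4.29 in memory cells and that of Ccr9 between 4.36 and 6.22 in cells labelled Foxp3+.

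Few of the other integrin subunits passed a test. Of 22 other alpha and beta chains listed, 11 were bright enough to be tested in memory cells, where 0 rose, 2 fell and 9 did not pass in the paired fit (4.61% of all genes were called) and 0 passed unpaired (0.0419% of all genes). The median difference was -0.01, against 0.00 for all genes. The 2 were Itgb8 (-1.18, limma adjusted p = 0.0358), the beta chain of an integrin that activates TGF-beta, and Itgal (-0.56, adjusted p = 0.0484), the alpha chain of LFA-1. Itgb8 passed the filter only through Memory arrays, the group where it was higher, so its test is not independent of the filter. Its levels overlapped, at 4.62 to 7.37 in Memory and 4.39 to 5.49 in MemoryRA cells. Under RA in cells labelled Foxp3+ 0 of 11 passed in either fit (limma, median -0.09), with values from -0.50 for Itgb3 to 0.20 for Itgav. Of all genes, 1.13% were called there paired and 0.103% unpaired. In cells labelled Foxp3- with RA 0 of 11 passed as well (0.274% of all genes paired). The same held for LP DC against Sp DC in cells labelled Foxp3+ (1.52% paired) and Foxp3- (0.624% paired). With shares this low, these counts are not read as a result about the subunits. Of the listed adaptors that activate integrins, such as talin and kindlin, 0 of 16 passed with RA in memory cells and 0 of 15 in cells labelled Foxp3+ (limma, either fit, medians 0.02 and -0.01). Of all genes, 4.61% and 1.13% were called in these paired fits and 0.0419% and 0.103% unpaired. These counts, too, are not read as a result about the adaptors.

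**Figure D5:**
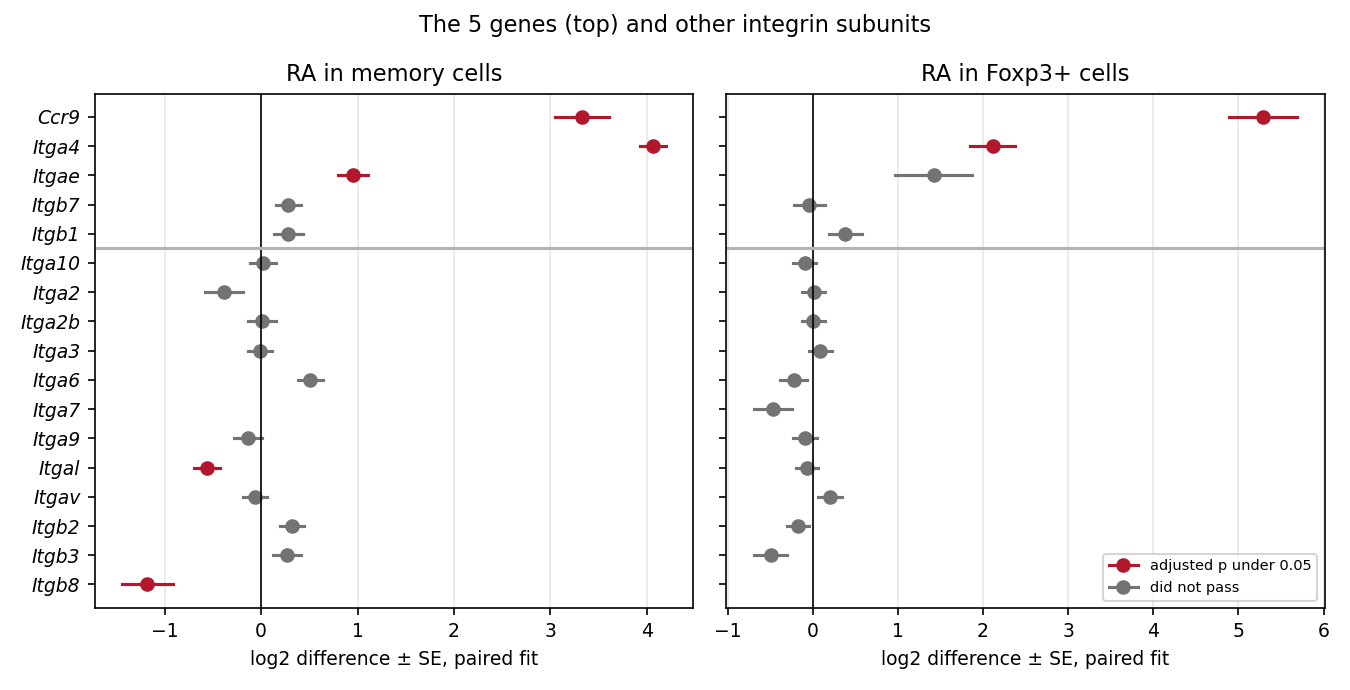
Log2 difference ± standard error with RA (horizontal axis, paired fit) of the 5 genes above a line and of the other integrin subunits tested below it, in memory cells and in cells labelled Foxp3+, coloured by whether they passed. Itga4 stands at 4.06 and 2.11, and the other subunits lie between -1.18 and 0.51 in memory cells and between -0.50 and 0.20 in cells labelled Foxp3+.

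Among 16 other homing receptors and enzymes of selectin ligands tested in memory cells, 1 rose and 3 fell with RA in the paired fit, in which 4.61% of all genes were called, and 0 passed unpaired (0.0419% of all genes). The median was -0.19. Selplg, the backbone of the P-selectin ligand, rose by 0.60. Fut4 (-1.67) and Fut7 (-1.13), the fucosyltransferases that finish selectin ligands, and Ccr7 (-0.58), the receptor for entry to lymph nodes, fell. In cells labelled Foxp3+ 0 of 16 passed in either fit (limma, median -0.18), with 1.13% of all genes called paired and 0.103% unpaired. Of 18 tested factors known at these genes, 2 rose and 2 fell in memory cells in the paired fit (4.61% of all genes were called), and 0 passed unpaired (0.0419%). Runx1 (1.08), a Runx factor, and Tgfbr2 (0.69), a TGF-beta receptor, rose, and Gata3 (-0.93) and Tbx21 (-0.61), factors of helper lineages, fell. Under RA in cells labelled Foxp3+ or Foxp3- 0 of 18 passed in either fit (limma), where the paired fits called 1.13% and 0.274% of all genes. With LP DC in cells labelled Foxp3+ Tgfbr1 rose by 1.23 in the paired fit (1 of 18, with 1.52% of all genes called). Runx3, a factor known for Itgae in CD8 T cells, gave -0.38 in memory cells and -0.57 in cells labelled Foxp3+ with adjusted p = 0.226 and 0.366 (paired).

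Of the listed ligands of these receptors, 6 could be tested in memory cells, and 1 rose and 1 fell in the paired fit, in which 4.61% of all genes were called. Neither passed unpaired (limma adjusted p = 0.165 for Cdh1 and 0.706 for Icam1). Cdh1, which encodes E-cadherin, the ligand of alpha E beta 7, rose by 1.89, and lay near background without RA, at 3.69 to 3.86, and at 4.97 to 6.17 with it. In memory cells it passed the filter only through arrays with RA. Icam1, a ligand of LFA-1, fell by 0.71 in memory cells and rose by 1.08 with LP DC in cells labelled Foxp3+ (paired fit for both). In the co-culture Cdh1 lay between 5.79 and 8.64 and was lower in cells labelled Foxp3+ than in those labelled Foxp3-, by 1.36 over the mean of the 3 cultures in both fits (limma adjusted p = 0.0269 unpaired and 0.00292 paired).

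The tissue labels were checked with marker lists. All 9 measured genes of CD4 T cell identity were above the array median on all 17 arrays, and with RA in memory cells Cd3e rose by 0.57 and Cd2 fell by 0.65 in the paired fit. The 5 measured B cell markers summed to 331 to 622. DC markers summed to 685 to 1100 in Memory and 649 to 1196 in MemoryRA cells. The 7 markers of CD8 T and NK cells summed to 561 to 869 in Memory cells and 1032 to 1523 in MemoryRA cells. This sum was thus higher in the group where Ccr9, Itga4 and Itgae rose. Nkg7 (1.76) and Klrd1 (0.87) were higher in the paired fit. Of the 7, only Nkg7 separated the groups, at 7.06 to 8.50 in Memory and 8.97 to 10.06 in MemoryRA cells. The others overlapped, among them Gzma at 7.16 to 7.68 in Memory and 6.74 to 8.21 in MemoryRA cells. Under RA in cells labelled Foxp3+ the sum was lower (2530 to 2914 against 4727 to 5818), while Ccr9 and Itga4 rose. Eomes (-2.22) and Klrd1 (-1.43) fell, and Nkg7 lay at 10.55 to 10.65 with RA against 11.66 to 11.78. Gzma (8.38 to 9.72 against 6.17 to 8.97) and Cd8a (5.93 to 6.77 against 5.62 to 6.04) reached higher with RA, with overlap. The defining gene Cd8a lay at 4.99 to 5.66 in Memory and 4.72 to 5.93 in MemoryRA cells, below the array median on all 6 arrays. The part of these cells in the values of Ccr9, Itga4 and Itgae was not tested. Of 4 tested markers of memory or naive state, Il2ra (-0.68) and Ccr7 (-0.58) fell in memory cells with RA in the paired fit and did not pass unpaired (adjusted p = 1.00 and 0.764). Il7r, which encodes the IL-7 receptor, rose with LP DC in the paired fit, by 1.03 in cells labelled Foxp3+ (limma adjusted p = 0.0228) and 1.04 in cells labelled Foxp3- (0.0270), and did not pass unpaired (0.474 and 0.609).

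The genes whose levels ran most like each member over the 17 arrays, with each experiment centred on its own mean, were sought among 11271 genes. For Ccr9 they were Cyp26b1 (Pearson r = 0.97), Dkk3 (0.94) and Asb2 (0.88). Itga4 ran most like Nipal1 (0.95), Map7 (0.92) and Zbtb20 (0.90), Itgb7 like Ccdc171 (0.85), Aco1 (0.84) and Cetn2 (0.84), Itgae like 1700028E10Rik (0.90), Leprot (0.89) and Cox17 (0.88), and Itgb1 like Irf8 (0.96), Fbh1 (0.95) and Pgap2 (0.95). Among the members themselves r was 0.69 between Ccr9 and Itga4, 0.55 between Itga4 and Itgae, 0.50 between Itga4 and Itgb7, 0.51 between Itgb7 and Itgb1 and -0.35 between Itgae and Itgb1. These are descriptions over arrays that share groups and array numbers, and they carry no test.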

How the data were processed

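The authors deposited linear intensity values from 17 Affymetrix arrays (45101 probe sets), made by RMA per the labels. The RMA version is not given in the sources used here. RNA was amplified before labelling, per the labels, and the effect of this on levels was not tested. Here log2 was taken with no pseudocount and no further normalization. Groups come from the labels, and the sort from the titles, since another label says Foxp3- for 5 of the 6 Foxp3+ arrays. A second SpRA Foxp3- array was not analysed here.

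Probe sets with 1 gene symbol (34958) were used. A gene was tested where 2 or more arrays of the fit put it over the array median. Each experiment was fitted by limma 3.58.1 (R 4.3.3) with Benjamini-Hochberg adjustment over all genes tested, and the contrast between experiments on all 17 arrays. The labels number the arrays. Residuals of same-numbered arrays correlated at 0.453 to 0.754 over 10 pairs of co-culture groups and at 0.650 to 0.938 for 3 memory numbers, so the numbers were taken to pair the arrays. Residual degrees of freedom were few (memory 4 unpaired and 2 paired, co-culture 5 and 4), and the number of arrays limits the precision. The fits were also run on data simulated from the paired fit. That setting favours the paired fit, and no result here rests on it.

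The members, the gene lists and the rule for named genes (the members, up to 3 genes of largest difference per list among those that passed in 4 comparisons, and the 3 genes most alike per member) were chosen with earlier results of these data known. Values for Runx3, Itgb3, Itgav, Cd8a, Itgax, Itgam, the DC marker H2-Ab1 in Foxp3- cells, Cdh1 and Il2ra between the sorts and Il7r in Foxp3- cells were added after their values were seen. Motifs were searched in promoter windows of RefSeq. Alternatives were other normalizations, filters, probe set rules, a pseudocount of 32, other sets of arrays, a block for the array number, and leaving out every array in turn.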

Additional observations from a re-analysis of the deposited data

Results flagged for a closer look

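The RA difference of Itga4 was larger in memory cells than in cells labelled Foxp3+ by 1.95 in the paired fit (limma adjusted p = 0.00882), a test of the difference itself, with all 3 memory differences (3.99, 3.91 and 4.29) above both Foxp3+ differences (1.61 and 2.62). In the unpaired fit it did not pass (adjusted p = 0.131). The experiments differ in cell type, stimulus, time and TGF-beta dose, and their parts cannot be told apart.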

How the results depend on the processing

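With the array number as a block (the paired fit), the members called rose from 1 to 3 of 5 for RA in memory cells, from 1 to 2 for RA in cells labelled Foxp3+, and from 0 to 1 for RA in cells labelled Foxp3-, for LP DC over Sp DC in cells labelled Foxp3+ and for RA in memory minus RA in cells labelled Foxp3+. It changed no other count of members. For RA in memory cells 2 were called under quantile normalization, no filter, all 17 arrays in one fit, either of the probe set rules added after seeing the data (only _x_at probe sets passed over, or the brightest of any kind) and with both memory arrays numbered 3 left out, also with the block, where the contrast of memory and cells labelled Foxp3+ called 1. For RA in cells labelled Foxp3+ 2 were called with the mean of all probe sets and with all 17 arrays, and 0 (limma) with log2 of the value plus 32 or only the groups compared, which both gave 0 for LP DC over Sp DC plus RA too. For RA in memory cells, the mean of all probe sets called Ccr9 (limma adjusted p = 0.0242) and no longer Itga4 (0.0885), unpaired. The cause of these changes was not tested.

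None of the differences that changed sign had passed a test. The mean of the 3 sorts for Ccr9 (0.00) became -0.0027 with median-centring, -0.13 with the block and -0.14 with the brightest probe set. For Ccr9, LP DC over Sp DC in cells labelled Foxp3+ (-0.15) became 0.0030 with the mean of probe sets and 0.35 with the brightest, and the sort with Sp DC (-0.13) became 0.14 and 0.027. The block turned Itgae (0.90 to -0.12) and Itgb1 (-0.13 to 0.0082) in the sort with Sp DC plus RA, and Itgae in the interaction of RA and sort (0.61 to -0.40). Either added probe set rule turned Itgae in the interaction of LP DC and sort (0.13 to -0.025).

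With each array left out in turn, in both fits, the members called ranged from 0 to 3 for RA in memory cells, 0 to 2 for RA in cells labelled Foxp3+, RA in cells labelled Foxp3-, LP DC over Sp DC in cells labelled Foxp3+ and RA in memory minus RA in cells labelled Foxp3+, and 0 to 1 for LP DC over Sp DC in cells labelled Foxp3- and LP DC over Sp DC plus RA. The following differences took both signs. For RA in memory cells these were Itgb1 from -0.26 to 0.65. For RA in cells labelled Foxp3+ these were Itgb7 from -0.28 to 0.20 and Itgae from -0.044 to 2.88. For RA in cells labelled Foxp3- these were Itgae from -0.68 to 2.29 and Itgb7 from -0.031 to 0.46. For RA in memory minus RA in cells labelled Foxp3+ these were Itgb1 from -0.65 to 0.27 and Itgae from -1.93 to 1.00. For LP DC over Sp DC in cells labelled Foxp3+ these were Ccr9 from -0.53 to 0.23, Itgb1 from -0.44 to 0.23 and Itgb7 from -0.078 to 0.14. For LP DC over Sp DC in cells labelled Foxp3- these were Ccr9 from -0.15 to 1.04 and Itgb7 from -0.16 to 0.33. For LP DC over Sp DC plus RA these were Itgae from -0.21 to 1.18 and Itgb7 from -0.16 to 0.31. For the sort with Sp DC these were Ccr9 from -0.48 to 0.21, Itga4 from -0.21 to 0.64, Itgb7 from -0.12 to 0.37, Itgae from -1.20 to 1.77 and Itgb1 from -0.50 to 0.030. For the sort with LP DC these were Itgb7 from -0.045 to 0.19, Itgb1 from -0.25 to 0.42 and Itgae from -0.66 to 1.49. For the sort with Sp DC plus RA these were Itgae from -0.95 to 1.36, Itgb1 from -0.43 to 0.16, Ccr9 from -0.18 to 1.93 and Itgb7 from -0.47 to 0.0076. For the mean of the 3 sorts these were Itgb7 from -0.090 to 0.10, Ccr9 from -0.35 to 0.36, Itgae from -0.084 to 1.03 and Itgb1 from -0.19 to 0.088. For the interaction of RA and sort these were Itgae from -1.24 to 2.10, Ccr9 from -0.051 to 2.06, Itgb1 from -0.20 to 0.40 and Itga4 from -0.16 to 0.69. For the interaction of LP DC and sort these were Ccr9 from -1.19 to 0.00053, Itgb7 from -0.30 to 0.19, Itgae from -1.35 to 1.62, Itgb1 from -0.018 to 0.65 and Itga4 from -0.018 to 0.83. Groups of 2 arrays lean on each one, and a lone array is assumed to vary like the other groups.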
